A study of Mus musculus with 49 samples.

Results

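The cells described here are the single mouse embryonic stem (ES) cells that the authors placed on either side of mitosis, called pre-M and post-M. They are 104 of 4098 cells that passed the authors' quality control, of 5871 listed, and they were taken by that flag and by the authors' group column. Of the 104, 66 were pre-M and 38 were post-M. Each cell had been measured by single-cell Hi-C, in which DNA segments that lie close together in a fixed nucleus are cut, ligated and sequenced as contacts. The cells come from 21 of the 44 Hi-C libraries that hold passing cells, in 3 tables. In the diploid 2i table there were 28 pre-M and 29 post-M cells of a diploid F1 hybrid line (129/SV-Jae by castaneus), grown without feeders in 2i medium. In the diploid serum table there were 17 pre-M and 6 post-M cells of the same line, grown with fetal bovine serum on feeder cells that were depleted before an Oct-3/4 sort. In the haploid table there were 21 pre-M and 3 post-M cells of the haploid line H129-1, from conditions whose codes name 2i or serum. The pre-M cells came from 5 libraries coded 2i_all and 4 coded Serum_G1/S. The post-M cells came from 1 library coded 2i_all and 2 coded Serum_G1/S. The 2i pre-M cells were 23 coded 1CD_lS_G2, 2 coded 1CD_mS and 3 coded NoSort. The 2i post-M cells were 17, 1 and 11 of these codes. All serum cells of both groups were coded 1CDS2. Every 2i or haploid comparison of the groups below therefore mixes conditions in unequal parts. The labels name no mutation or drug for either group, and the nuclei of some libraries had been sorted on Hoechst stain and Geminin. The condition codes are given below as deposited, since the labels do not define them.

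During mitosis, condensin complexes pack chromosomes into compact rods of stacked loops, and the domains, loops and compartments of the interphase nucleus fade. After division the rods open again and interphase folding is rebuilt. In interphase, compartments separate active from inactive chromatin, and insulation measures how strongly contacts stop at domain borders.

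The groups were defined from contact distances, so every measure made from contacts within chromosomes is described here without a test. The mitotic band and the near band are 2 ranges of contact distance whose limits are not given in the sources used here; by their names, they hold the distances favoured in mitosis and the short distances. Near and mitotic shares reached at most 98.3% together in 2i cells, and the remainder, called the share outside both bands below, was computed as 100% minus the 2 shares. With the share of contacts between chromosomes added, the sum reached 101.3% for 2i, 102.6% for serum and 104.3% for haploid cells, so the band shares are not parts of a total that includes those contacts.

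The mitotic-band share set post-M cells apart from all other stages, and only the highest pre-M cells. Pre-M cells in 2i had a mitotic-band share of 9.92% at the lowest, 18.1% at the median and 43.1% at the highest, and post-M cells had 31.6%, 42.7% and 47.7%. In serum the same 3 values were 10.2%, 18.3% and 45.1% in pre-M cells and 32.4%, 40.9% and 46.6% in post-M cells. In haploid cells they were 9.83%, 19.4% and 47.5% in pre-M cells and 38.4%, 40.6% and 50.0% in post-M cells. The 2 groups overlapped in this share in each table. All 38 post-M cells lay above every other passing cell of their table outside the 2 groups, whose highest value was 31.5% for 2i, 29.6% for serum and 31.4% for haploid cells. Of the pre-M cells, 4 of 28 in 2i, 2 of 17 in serum and 4 of 21 haploid cells lay above that value.

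The near-band share was what kept the groups from meeting. In 2i it ran between 53.7% and 84.9% in pre-M cells and between 36.1% and 51.4% in post-M cells. In serum the range was 51.3% to 82.7% in pre-M cells and 38.6% to 47.1% in post-M cells, and in haploid cells it was 44.8% to 81.7% in pre-M cells and 38.4% to 40.9% in post-M cells. No pre-M cell overlapped a post-M cell of its table in near-band share. As the rule used these values, the separation is a description of the groups.

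**Figure D1:**
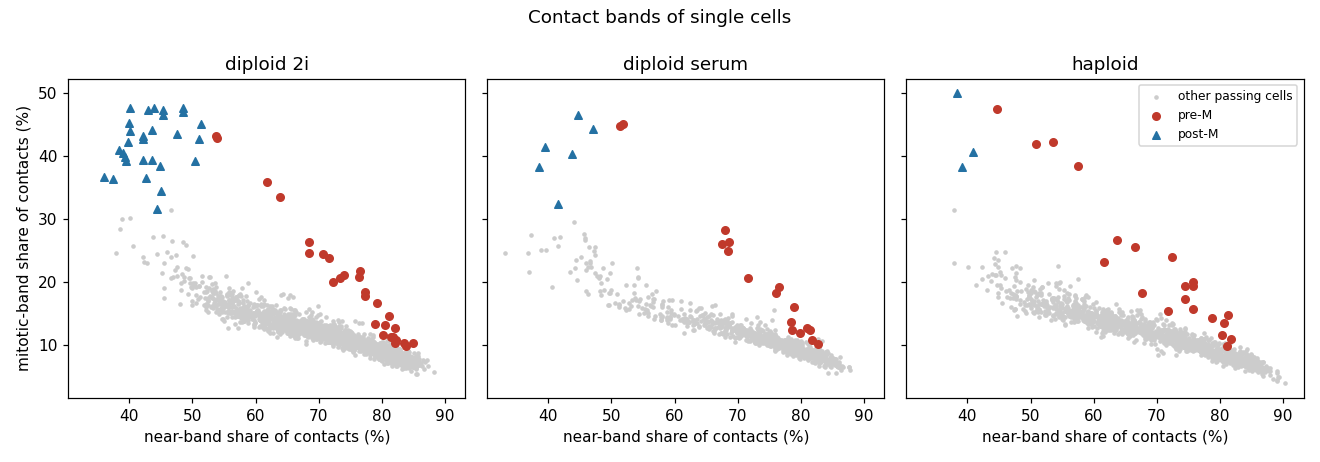
Near-band share (x axis, percent of contacts) against mitotic-band share (y axis, percent) for each passing cell, in the diploid 2i, diploid serum and haploid tables; circles are pre-M cells, triangles post-M cells and small points all other passing cells. Pre-M cells run along the upper edge of the other cells and then away from them to the upper left, and post-M cells sit at mitotic-band shares above 31%.

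Inside each group the authors' order followed the mitotic-band share exactly. Along the order the share rose at 27 of 27 steps between pre-M cells in 2i, at 16 of 16 in serum and at 20 of 20 in haploid cells. It fell at 28 of 28 steps between post-M cells in 2i, at 5 of 5 in serum and at 2 of 2 in haploid cells. The steps between late-S/G2 cells of 2i did not all run one way, with 339 in one direction and 309 in the other. A course along the order inside pre-M or post-M is therefore a course along the mitotic-band share.

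At the border between late-S/G2 and pre-M in 2i, the last 3 late-S/G2 cells had mitotic-band shares of 7.70%, 7.40% and 5.75%, and the first 3 pre-M cells had 9.92%, 10.4% and 10.4%. Other late-S/G2 cells of 2i reached up to 11.7%, so the 2 groups overlapped in this share. The last 3 pre-M cells in 2i had 36.0%, 42.9% and 43.1%. The first 3 post-M cells had 47.7%, 47.7% and 47.6%, and the last 3 had 36.3%, 34.5% and 31.6%.

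Far distance was shorter in later pre-M cells. It is read from its column name as the mean distance of far contacts, here in Mb, and its exact definition is not given. Its median in 2i was 20.0 Mb in the first 10 pre-M cells of the order, 15.4 Mb in the next 9 and 10.97 Mb in the last 9. In serum it was 20.2 Mb in the first 6 pre-M cells, 15.8 Mb in the next 6 and 11.9 Mb in the last 5. In haploid cells the medians were 19.7, 16.9 and 11.2 Mb in 3 parts of 7 pre-M cells each. Spearman's rho between far distance and order was -0.88 over 28 pre-M cells in 2i and -0.96 over 17 in serum and -0.72 over 21 in haploid cells. The points share libraries, and order here is the mitotic-band share.

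Insulation and compartment scores were also lower in later pre-M cells of 2i. Median insulation was 2.07 in the first 10 pre-M cells, 1.99 in the next 9 and 1.76 in the last 9. The cis compartment score, which measures how strongly active and inactive segments of the same chromosome separate, had medians of 0.360, 0.280 and 0.184 over these 3 parts. The haploid pre-M cells had median insulation of 2.09, 2.03 and 1.86, and median cis compartment scores of 0.336, 0.275 and 0.211. In serum the pattern was shallower, with median insulation of 2.01, 2.01 and 1.88 and cis compartment scores of 0.153, 0.144 and 0.131.

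Contacts between chromosomes made up less of the total in later pre-M cells. Their median share in 2i was 3.04% in the first 10 pre-M cells, 1.63% in the next 9 and 1.64% in the last 9. It was 3.42%, 2.50% and 1.91% over the 3 parts in serum, and 3.69%, 2.07% and 1.42% in haploid cells. Most of the drop in 2i lay between the first and middle parts, whereas the medians in serum and haploid cells were lower in each later part.

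In post-M cells, later cells had longer far distances. In 2i the first 15 post-M cells had a median far distance of 10.7 Mb and the last 14 had 12.7 Mb, and rho with order was 0.81 over the 29 cells. The share outside both bands had a median of 9.03% in the first 15 and 20.6% in the last 14. Median insulation was 1.65 in the first 15 and 1.66 in the last 14, and its rho with order was 0.16. The cis compartment score had medians of 0.168 and 0.204, and contacts between chromosomes had medians of 2.54% and 1.46%. In serum, with 3 cells in each part, far distance had a median of 10.4 Mb in the earlier and 13.4 Mb in the later post-M cells. Median insulation there was 1.65 in the earlier and 1.77 in the later cells, with a rho of 0.54 over 6 cells.

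**Figure D2:**
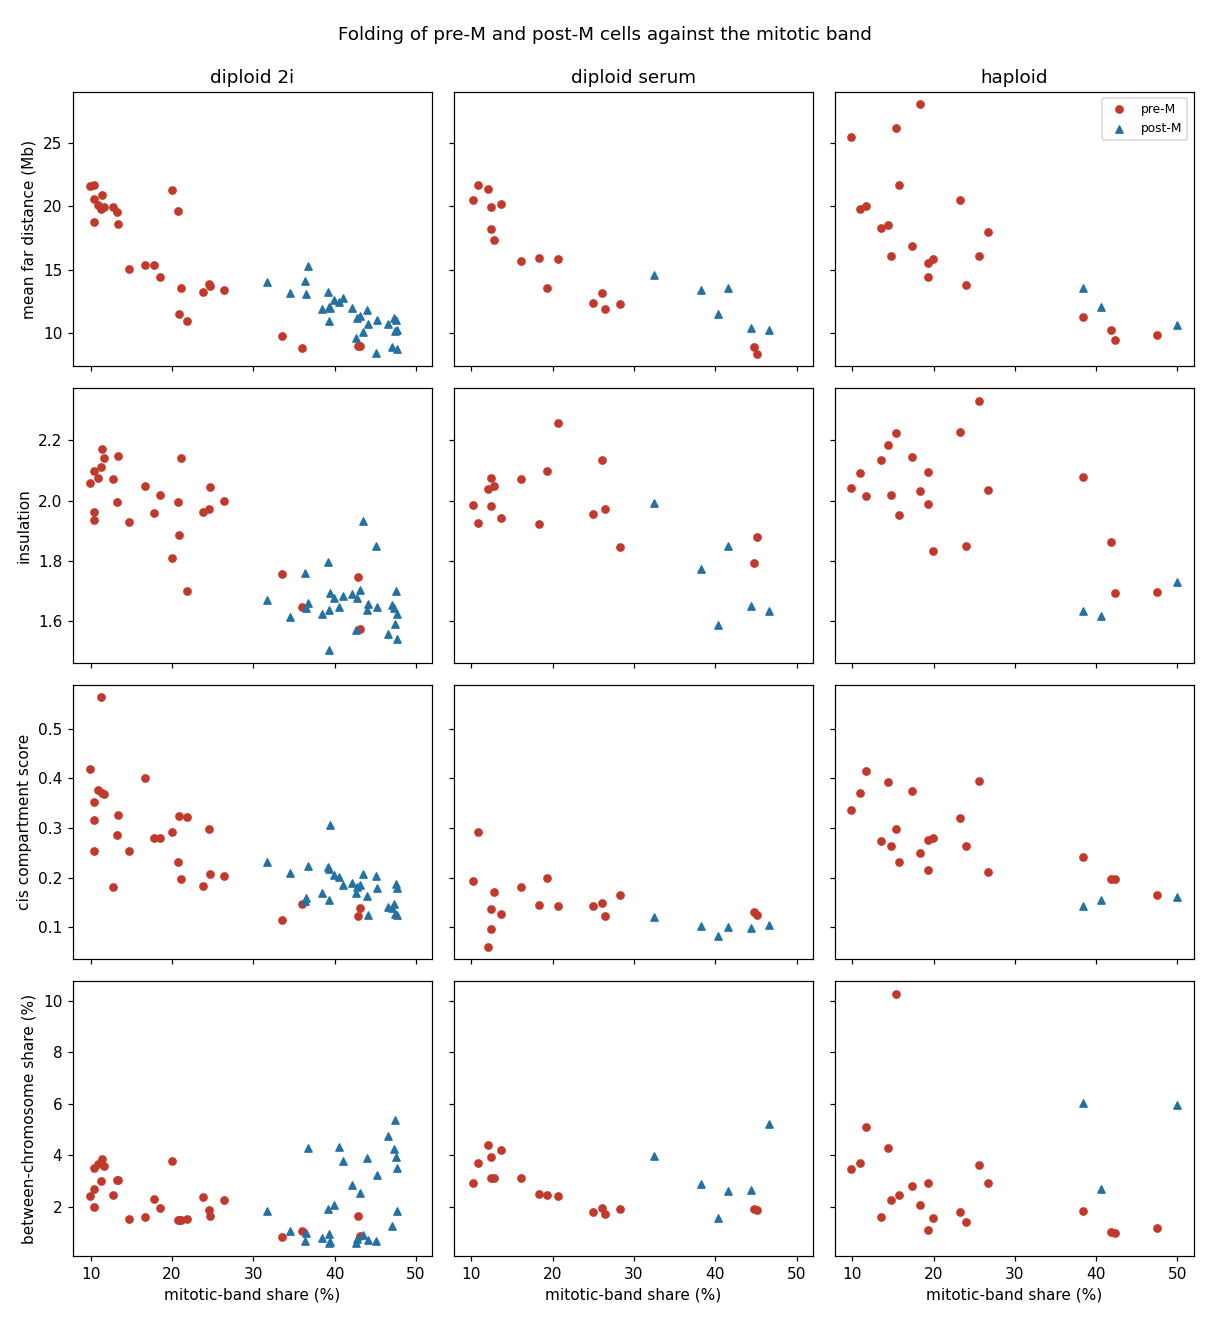
Far distance (Mb), insulation, cis compartment score and between-chromosome share (percent) of each pre-M cell (circles) and post-M cell (triangles) against its mitotic-band share (percent), by table. Far distance falls with the mitotic band in both groups, and in 2i, where both groups hold cells between 31.6% and 43.1%, the pre-M circles lie between 8.81 and 9.79 Mb and the post-M triangles between 9.64 and 15.3 Mb.

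Within the range of mitotic-band share that both groups span, pre-M cells had shorter far distances than post-M cells, by their medians. The shares themselves were close in 2i, with medians of 39.4% in pre-M and 39.3% in post-M cells. They were not matched in serum, where both pre-M cells (44.8% and 45.1%) lay above all 5 post-M cells (at most 44.4%), nor in haploid cells, with medians of 42.1% in pre-M and 39.5% in post-M cells. Far distance was itself shorter at higher mitotic-band share, so only the 2i cells are compared at a like share, and its 4 pre-M cells come from 1 library. Near-band share, which the grouping used, still separated these 2i cells, at 53.7% to 63.9% in pre-M and 36.1% to 51.0% in post-M cells. The share outside both bands had medians of 2.87% in pre-M and 20.4% in post-M cells. The far distances in this range thus describe the groups as they were drawn. Between 31.6% and 43.1% in 2i, the range both groups share, there were 4 pre-M cells, all of the library diploid 26, and 16 post-M cells of 7 libraries. The 4 pre-M cells had far distances between 8.81 and 9.79 Mb, and the 16 post-M cells between 9.64 and 15.3 Mb. In serum 2 pre-M cells had 8.36 and 8.92 Mb, and 5 post-M cells had 10.4 to 14.6 Mb. In haploid cells 4 pre-M cells had 9.44 to 11.2 Mb, and 2 post-M cells had 12.02 and 13.5 Mb. The groups did not overlap in serum or haploid cells, and in 2i they overlapped by a narrow margin. Insulation in the shared range had medians of 1.70 in pre-M and 1.66 in post-M cells in 2i, 1.83 and 1.77 in serum, and 1.78 and 1.63 in haploid cells. The cis compartment score there had medians of 0.130 in pre-M and 0.196 in post-M cells in 2i. The other tables went the other way, with medians of 0.127 and 0.0995 in serum and 0.197 and 0.149 in haploid cells.

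Over whole groups, post-M cells had the lowest insulation medians of the 4 stages around mitosis. Insulation in 2i was 1.57 at the lowest, 1.99 at the median and 2.17 at the highest in pre-M cells, and 1.50, 1.65 and 1.93 in post-M cells. In serum it was 1.79, 1.98 and 2.26 in pre-M cells and 1.59, 1.71 and 1.99 in post-M cells. The 3 haploid post-M cells had insulation of 1.62, 1.63 and 1.73, against a pre-M median of 2.03. Post-M cells lay below every passing cell outside the 2 groups in 27 of 29 cases for 2i, 5 of 6 for serum and 3 of 3 for haploid cells. The same was true of 6 of 28 pre-M cells of 2i, 3 of 17 of serum and 5 of 21 of haploid cells.

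Averaged per library, insulation in 2i was 1.98 ± 0.0677 in pre-M cells (SD, n = 6 libraries) and 1.68 ± 0.0551 in post-M cells (SD, n = 7 libraries). It was higher in pre-M in 5 of 5 libraries that hold both groups. In serum it was 1.99 ± 0.0631 in pre-M and 1.81 ± 0.153 in post-M cells (SD, n = 4 libraries each), and it was higher in pre-M in 3 of 4. The serum difference of 0.176 became 0.362 with only libraries of at least 2 cells in a group, and 0.356 with at least 3. In haploid cells it was 2.04 ± 0.107 in pre-M (SD, n = 9 libraries) and 1.66 ± 0.0604 in post-M cells (SD, n = 3 libraries), and higher in pre-M in 3 of 3. Far distance was longer in pre-M by 3.90 Mb in 2i, by 4.07 Mb in serum and by 4.62 Mb in haploid cells, as a difference of library means. That difference has the opposite sign within the shared range of mitotic-band share, at -3.16 Mb for 2i, -4.48 Mb for serum and -2.45 Mb for haploid cells.

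The cis compartment score was 0.319 ± 0.0526 in pre-M and 0.188 ± 0.0234 in post-M cells over libraries in 2i, higher in pre-M in 5 of 5 libraries. Within the shared range of mitotic-band share the 2i difference turned to -0.0663, while the haploid difference stayed positive at 0.0524. In serum the score was 0.162 ± 0.0553 in pre-M and 0.104 ± 0.0114 in post-M cells, higher in pre-M in 4 of 4. In haploid cells it was 0.278 ± 0.0533 in pre-M and 0.153 ± 0.00892 in post-M cells, higher in pre-M in 3 of 3, and no pre-M cell overlapped a post-M cell. Serum levels lay below those of the other tables, and the scale of the score is not stated.

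Loop enrichment, read as a log2 value, was used for the 2i and haploid tables, for 2 loop classes coded EE and LL. At EE loops its median in 2i was 0.51 in pre-M and 0.36 in post-M cells, and at LL loops 0.88 in pre-M and 0.67 in post-M cells. The 2 groups overlapped widely, with 21 of 28 pre-M cells above the post-M median at EE loops and 19 of 28 at LL loops. In the 3 haploid post-M cells the EE value was -1, 0 and 1.17, against a pre-M median of 1.17, and within libraries it was higher in pre-M in 3 of 3. Their LL values were -0.53, -0.53 and 1.30, against a pre-M median of 0.85, and within libraries LL was lower in pre-M in 2 of 3.

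Contacts between chromosomes made up a small share in both groups of the diploid tables and in haploid pre-M cells, by their medians. The 3 haploid post-M cells were mixed, with shares of 2.72%, 5.94% and 6.05%. Their share in 2i had a median of 2.14% in pre-M and 1.85% in post-M cells, against 4.98% in late-S/G2 and 5.26% in G1. Post-M cells of 2i differed among libraries and also within them. The mean share was 2.56% over 8 cells of diploid 25 and 3.26% over 9 cells of diploid 26, libraries of the condition coded 1CD_lS_G2. Single cells ran from 1.07% to 4.75% in diploid 25 and from 0.605% to 5.38% in diploid 26. The mean was 2.85%, 0.687%, 1.94% and 0.676% in the 4 NoSort libraries, over 1, 4, 4 and 2 cells. The 1 post-M cell of diploid 23, coded 1CD_mS, had 0.816%. In serum the medians were 2.52% in pre-M and 2.77% in post-M cells, against 5.96% in late-S/G2 and 5.31% in G1. Haploid cells had a median of 2.28% in pre-M and 5.94% in post-M cells, against 5.53% in late-S/G2 and 6.01% in G1, and 458 of 1223 other haploid cells lay below the post-M median.

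**Figure D3:**
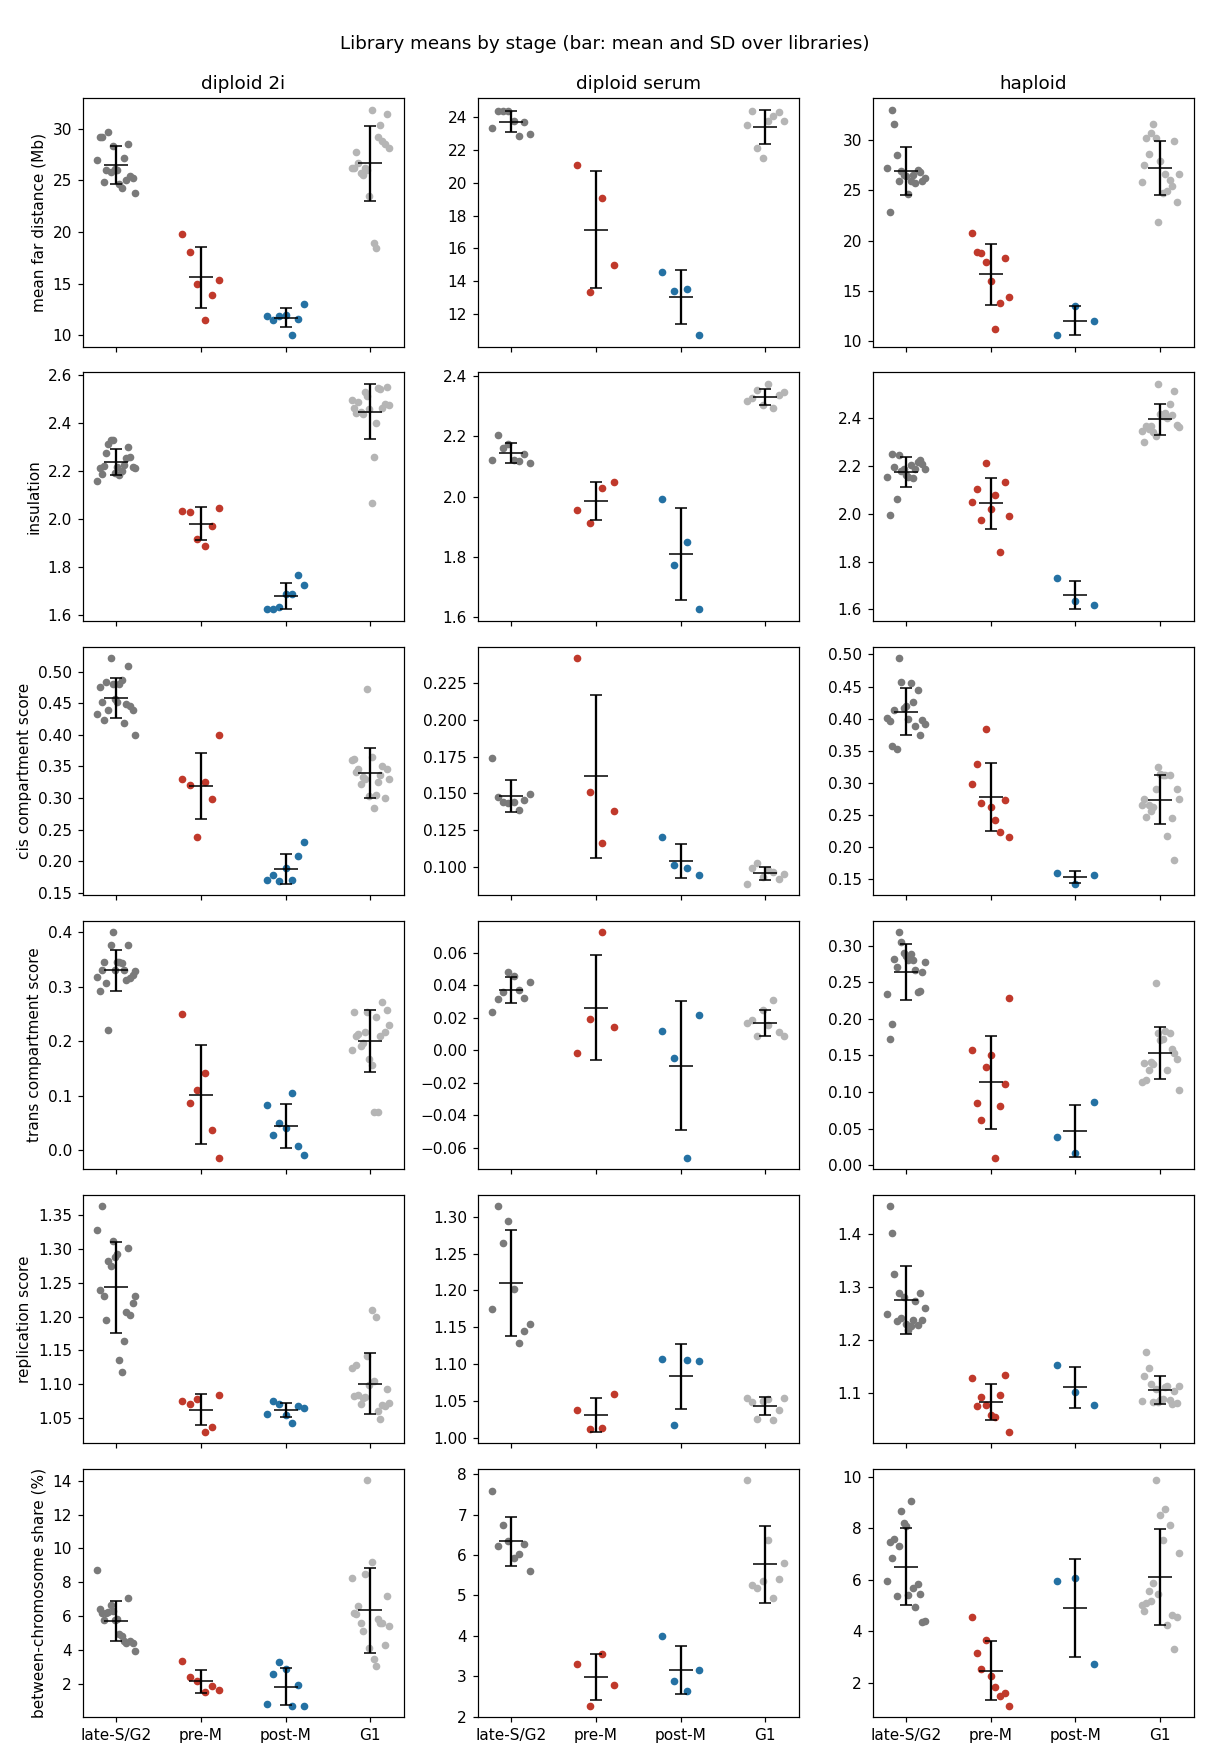
Library means of 6 measures in late-S/G2, pre-M, post-M and G1 cells, in cycle order, by table; points are libraries and bars the mean and SD over all libraries with cells of that stage, which for late-S/G2 and G1 are more than those in the paired tests. Insulation is lowest in post-M cells in all 3 tables, and the replication score of pre-M cells lies below that of late-S/G2.

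The remaining 7 measures are not made from distances within chromosomes, and they were tested with the library as the unit. The question was whether pre-M and post-M cells differ in them, and how each group differs from its neighbour in the cycle. Two-sided exact permutation tests were run for 63 combinations of measure, table and comparison, with Benjamini-Hochberg adjustment over all 63. None passed an adjusted p of 0.05, and 10 had an unadjusted p under 0.05, of which 0 were for pre-M against post-M, 5 for pre-M against late-S/G2 and 5 for post-M against G1. The smallest p that the libraries allowed for pre-M against post-M was 0.0104 in 2i and 0.125 in both serum and haploid cells. Serum and haploid cells could thus not reach 0.05 in this comparison. In 2i, a p of 0.0104 passes the adjustment over 63 tests only if many other tests have p-values as small. The lack of a pass for pre-M against post-M therefore cannot show that the groups are alike. Nothing in the labels ties libraries to separate cultures, and these p-values therefore cover only the spread between libraries.

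The replication score is, by its column name, the authors' score related to DNA replication, and its formula is not given. A lower score is therefore not read here as less DNA replicated. Pre-M cells had lower scores than late-S/G2 cells in every library that holds both. In haploid libraries the mean was 1.08 ± 0.0344 in pre-M and 1.24 ± 0.0189 in late-S/G2 cells (SD, n = 9 libraries), lower in 9 of 9 (exact sign-flip p = 0.00391, adjusted p = 0.0820). In 2i it was 1.06 ± 0.0231 in pre-M and 1.19 ± 0.0622 in late-S/G2 cells (SD, n = 6 libraries), lower in 6 of 6 (exact p = 0.0312, adjusted p = 0.197). The serum value was 1.03 ± 0.0229 in pre-M and 1.16 ± 0.0313 in late-S/G2 cells (SD, n = 4 libraries), lower in 4 of 4 (exact p = 0.125, the smallest possible, adjusted p = 0.315). None of the 3 passed the adjusted threshold. Late-S/G2 is a broad group by its name, and its scores in 2i ran from 1.03 to 1.52 over cells. Pre-M cells of 2i ran from 1.03 to 1.14, inside that range. How far the lower pre-M means follow from the way late-S/G2 was drawn was not tested.

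Between pre-M and post-M the replication score in 2i was 1.06 ± 0.0231 and 1.06 ± 0.0108 over libraries (exact permutation p = 0.938, adjusted p = 0.968). For serum cells it was 1.03 ± 0.0229 in pre-M and 1.08 ± 0.0437 in post-M cells, lower in pre-M in 4 of 4 libraries (exact p = 0.125, adjusted p = 0.315). In haploid cells it was 1.08 ± 0.0344 in pre-M and 1.11 ± 0.0381 in post-M cells, lower in pre-M in 3 of 3 (exact p = 0.125, adjusted p = 0.315).

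Compartment scores between chromosomes were low on both sides of mitosis in 2i and haploid cells. The trans compartment score is the authors' compartment score from contacts between chromosomes. In 2i the median share of these contacts was 2.14% in pre-M and 1.85% in post-M cells, against 4.98% in late-S/G2 and 5.26% in G1. The part of that in the score was not tested. In 2i it was 0.102 ± 0.0908 in pre-M (SD, n = 6 libraries) and 0.331 ± 0.0113 in late-S/G2 cells of the same libraries, lower in 6 of 6 (exact p = 0.0312, adjusted p = 0.197). In haploid cells it was 0.113 ± 0.0633 in pre-M and 0.278 ± 0.0199 in late-S/G2 cells, lower in 9 of 9 libraries (exact p = 0.00391, adjusted p = 0.0820). Post-M cells of 2i had 0.0440 ± 0.0400 (SD, n = 7 libraries), against 0.200 ± 0.0638 in G1, lower in 7 of 7 (exact p = 0.0156, adjusted p = 0.141). Haploid post-M cells had 0.0471 ± 0.0358 (SD, n = 3 libraries), against 0.159 ± 0.0396 in G1. They were lower in 3 of 3 (exact sign-flip p = 0.250, the smallest possible, adjusted p = 0.477). Between pre-M and post-M in 2i the difference was 0.0582 (exact p = 0.125, adjusted p = 0.315), with 3 of 5 libraries higher in pre-M. Serum scores were 0.0261 ± 0.0324 in pre-M and 0.0393 ± 0.00597 in late-S/G2 cells, lower in pre-M in 3 of 4 libraries (exact p = 0.500, adjusted p = 0.716). Haploid pre-M and post-M cells differed by 0.0662 (exact p = 0.250, adjusted p = 0.477).

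The alignment score is, by its column name, taken from contacts between chromosomes, and its definition is not given. In haploid cells it was 0.203 ± 0.0752 in pre-M (SD, n = 9 libraries) and 0.549 ± 0.0518 in post-M cells (SD, n = 3 libraries), lower in pre-M in 3 of 3 libraries with both (exact p = 0.125, adjusted p = 0.315). The 3 haploid post-M cells had scores of 0.490, 0.575 and 0.584, above all 21 pre-M cells, whose highest was 0.344. They also held more contacts, with 133736, 314299 and 327201 per cell against a pre-M median of 101145, and the part of that in the score was not tested. In 2i the score was 0.240 ± 0.0397 in pre-M and 0.314 ± 0.0840 in post-M cells, lower in pre-M in 4 of 5 libraries (exact p = 0.0938, adjusted p = 0.315). The serum value was 0.263 ± 0.0158 in pre-M and 0.309 ± 0.162 in post-M cells, lower in pre-M in 3 of 4 (exact permutation test, adjusted p = 0.743). Without the library diploid 5_10 the serum difference turned to 0.0154. Haploid pre-M cells also scored below late-S/G2 cells, which had 0.299 ± 0.0256, in 9 of 9 libraries (exact p = 0.00391, adjusted p = 0.0820).

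The no-digestion share is the authors' share, with no stated denominator, of undigested material in a cell. It was 41.4% ± 6.82 in pre-M and 38.5% ± 5.04 in post-M cells over 2i libraries, higher in pre-M in 5 of 5 libraries with both (exact p = 0.0625, adjusted p = 0.315). For serum cells it was 33.3% ± 1.95 in pre-M and 31.6% ± 2.12 in post-M cells, higher in 4 of 4 (exact p = 0.125, adjusted p = 0.315). In haploid cells it was 28.3% ± 5.73 in pre-M and 21.4% ± 2.82 in post-M cells, higher in 3 of 3 (exact p = 0.125, adjusted p = 0.315). In all 12 libraries that hold both groups the pre-M mean was thus the higher. The share moved with depth, as its Spearman's rho with contacts per cell was -0.69 over 28 pre-M and -0.58 over 29 post-M cells in 2i. With only libraries holding at least 2 cells of a group, the 2i difference turned to -2.06 percentage points, and within the shared range of contacts the haploid difference turned to -1.39.

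A test of the 3 tables together was added after the data were seen, for 6 measures. The trans compartment score was left out because its levels differ widely between tables. Levels of the no-digestion share and of contacts also differ between tables, and these measures were kept. The choice of the 6 measures, which sets the adjustment, was thus also made after the data were seen. The no-digestion share was higher in pre-M by 3.88 percentage points as a mean of the 3 tables (exact permutation p = 0.000163 from 12288 arrangements, adjusted over the 6 measures 0.000977). The mean within-library difference over the 12 libraries was 3.12 points. As the direction in all 12 had been seen before this test was added, its p restates that direction and is no independent evidence of it. The alignment score was lower in pre-M by 0.155 as a mean of tables (coded pre-M minus post-M, -0.155; exact p = 0.0147, adjusted p = 0.0295), and lower in 10 of 12 libraries, where the within-library test gave an adjusted p of 0.0747. The replication score differed by -0.0267 (exact p = 0.00627, adjusted p = 0.0188), was lower in pre-M in 9 of 12 libraries, and had an adjusted p of 0.0967 within libraries. It was lower in pre-M in 2 of the 3 tables, and the 2i difference was 0.000815. The directions of the alignment and replication scores in each table had also been seen first, so their p-values here are no independent evidence either. Coverage deviation, by its column name the largest departure of a chromosome's coverage, differed by -0.148 (exact p = 0.0348, adjusted p = 0.0522). Duplicated fragment ends differed by -0.571 percentage points (exact p = 0.190, adjusted p = 0.228) and contacts by -15331 (exact p = 0.742, adjusted p = 0.742).

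**Figure D4:**
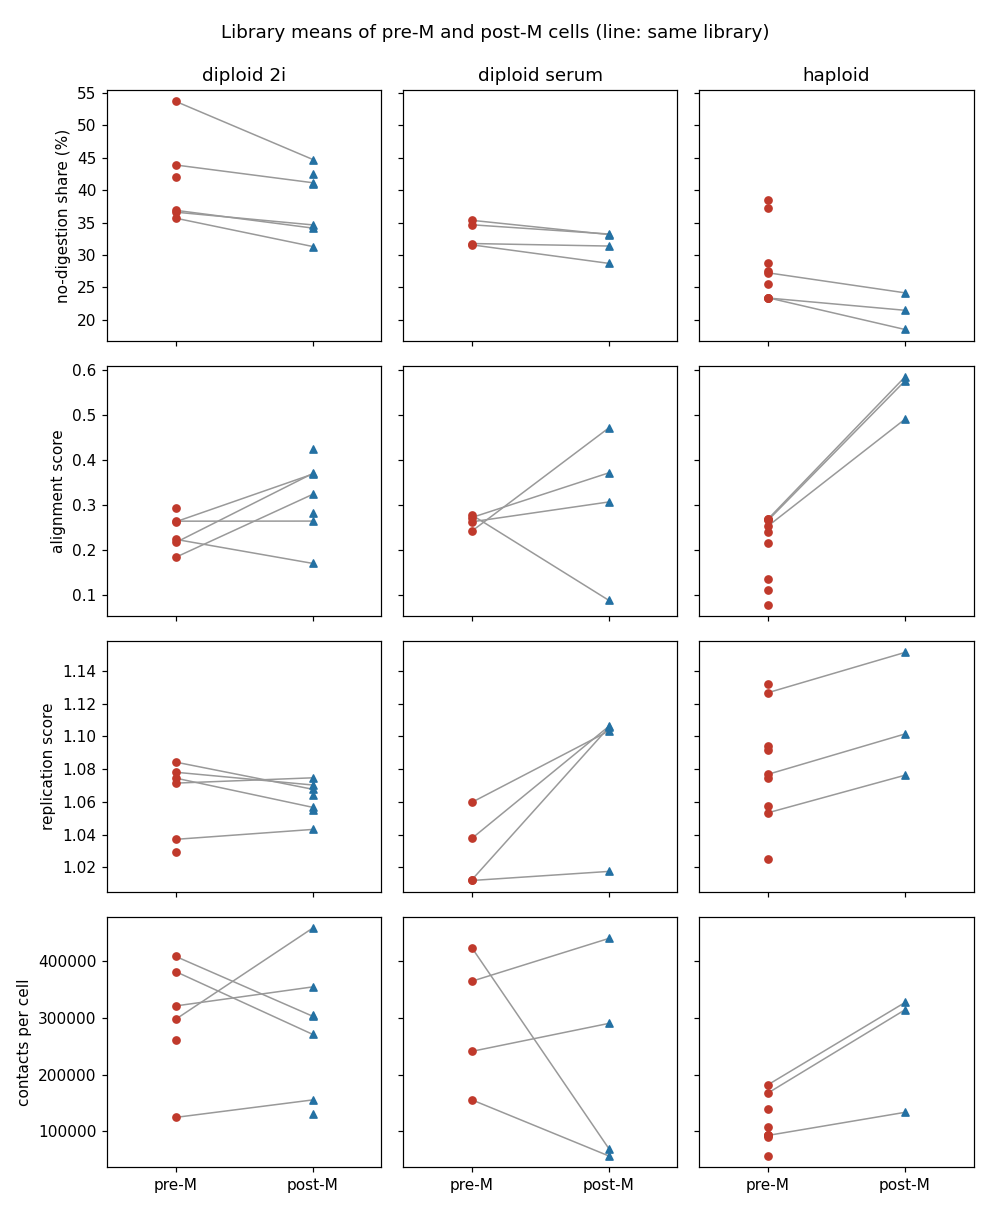
Library means of the no-digestion share (percent), alignment score, replication score and contacts per cell in pre-M cells (left, circles) and post-M cells (right, triangles), by table; lines join the means of a library that holds both groups. The no-digestion lines run down to post-M in all 12 such libraries.

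Contacts per cell, the depth behind each value, had a median of 316154 in pre-M and 369796 in post-M cells in 2i, 330884 and 257384 in serum, and 101145 and 314299 in haploid cells. Per table, the contacts of pre-M and post-M cells were 299121 ± 100996 and 282485 ± 112920 over 2i libraries (exact permutation p = 0.698, adjusted p = 0.785), 296307 ± 120696 and 214231 ± 184846 in serum (exact permutation test, adjusted p = 0.743), and 113708 ± 40829 and 258412 ± 108165 in haploid cells (exact p = 0.125, adjusted p = 0.315). Post-M cells of 2i held more contacts than G1 cells in 7 of 7 libraries, with 282485 ± 112920 against 112924 ± 43838 (exact p = 0.0156, the smallest possible, adjusted p = 0.141). Duplicated fragment ends per table were 4.50% ± 1.51 in pre-M and 4.97% ± 2.13 in post-M cells in 2i, 2.84% ± 0.932 and 2.64% ± 1.23 in serum, and 1.51% ± 0.598 and 2.96% ± 0.440 in haploid cells, with adjusted p-values of 0.752, 0.743 and 0.315 from the exact permutation test. Coverage deviation was 0.358 ± 0.130 in pre-M and 0.399 ± 0.101 in post-M cells in 2i, 0.274 ± 0.116 and 0.507 ± 0.113 in serum, and 0.328 ± 0.137 and 0.498 ± 0.381 in haploid cells, with adjusted p-values of 0.738, 0.315 and 0.716 from the same test.

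The share of pre-M and post-M cells differed between conditions. In the 2i condition coded 1CD_lS_G2, 23 of 326 passing cells were pre-M (7.06%, exact Clopper-Pearson 95% interval 4.52% to 10.4%) and 17 were post-M (5.21%, 3.07% to 8.22%). In 1CD_mS, 2 and 1 of 262 cells were pre-M and post-M. In NoSort, 3 of 420 were pre-M (0.714%, 0.148% to 2.07%) and 11 were post-M (2.62%, 1.31% to 4.64%). In 1CDU, 0 of 401 cells were in either group, which allows a share of up to 0.748%, taken here and below for a count of 0 as 3 cells of the total; the upper bound of the exact 95% interval is 0.916%. None of 280 cells of 1CD_G1 and none of 303 of 1CD_eS were in either group, which allows up to 1.07% and 0.990%. In serum, 1CDS2 held 17 pre-M cells of 431 (3.94%, 2.31% to 6.24%) and 6 post-M cells (1.39%, 0.513% to 3.01%), and 1CDS1 held 0 of 428, which allows up to 0.701%. In haploid cells, 2i_all held 11 pre-M cells and 1 post-M cell of 395, Serum_G1/S held 10 and 2 of 581, and 2i_G1 held 0 of 271, which allows up to 1.11%. These intervals and limits cover counting error only, and condition and library cannot be told apart.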

How the data were processed

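Single-cell Hi-C of 2 mouse ES lines gave 3 deposited tables of cells by features. Reads were aligned with Bowtie2 to mm9, per the submitters' processing notes; how the columns were computed is not given in the sources used here. Contacts per cell are a deposited count. The deposited band, between-chromosome, no-digestion and duplicate shares are each a fraction, shown in percent, with denominators not stated. Each deposited score (insulation, compartments, replication, alignment, coverage deviation) has no stated scale. The deposited loop enrichments were read as log2 values from their range. Nuclear RNA was measured in 4 more samples, not analysed here.

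Cells with the authors' quality flag and group pre-M or post-M were kept, and 15 deposited measures were used. The batch number of each cell gave its GEO sample, called a library here. In the cell list 228 of 241 barcode pairs occurred in more than 1 library and 0 were repeated within a lane, and 0 passing cells had identical values. Values were averaged over the cells of a group in a library (minimum 1 cell), then over libraries. Libraries with both groups swapped their 2 means and other libraries permuted their labels; neighbouring stages were compared by sign-flips of within-library differences. Spearman's rho is over cells, with no p. Tests were tested on simulated data. The members, measures and tests were chosen with earlier results of these data known. By rule, each measure is given for pre-M against post-M, with the cells of highest and lowest mitotic-band share; the tables hold no genes and no cell type markers. Alternatives were other cell minimums, medians, pooled cells, shared ranges of contacts or mitotic-band share, leaving out NoSort or single libraries, and the replicate block; the test over the 3 tables together was chosen after seeing the data. Library replicate numbers mark the same library, so pre-M and post-M means of a library are paired by origin. Software was Python 3.11.15 with scipy 1.17.1, numpy 2.4.6, matplotlib 3.10.9 and pandas 2.3.3.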

Additional observations from a re-analysis of the deposited data

Results flagged for a closer look

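Among 76 groups of 4 to 10 libraries checked for a library far from the others, 1 was flagged. That is a lower rate than the about 1 in 20 that chance alone gives. The replication score of post-M cells in serum was 1.02 in the library diploid 7, which holds 1 such cell, and the nearest of the other 3 libraries was at 1.10.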

How the results depend on the processing

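The count of tests past an adjusted p of 0.05 stayed at 0 for pre-M against post-M under each alternative run, the replicate block (paired within libraries) included. With so few libraries a pass in this comparison was nearly or fully out of reach, so the unchanged 0 is no evidence of stability. Without the replicate block it came to 5 for pre-M against late-S/G2 and to 2 for post-M against G1, against 0 each. Few libraries and few cells per library limit the precision: 5, 4 and 3 libraries hold both groups, many with 1 post-M cell.

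Cells in the shared range of mitotic-band share changed pre-M minus post-M for several measures. There far distance was -3.16 (2i), -4.48 (serum) and -2.45 Mb (haploid), insulation 0.0155, 0.0266 and 0.225, and the between-chromosome share -0.495 (2i) and -0.997 points (serum). The cis compartment score (-0.0663) and late-loop enrichment (-0.10) of 2i and the mitotic-band share of serum (6.31) and haploid cells (3.18) also changed sign. Serum insulation moved to 0.362 and 0.356 with minimums of 2 and 3 cells. The cause was not tested.

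Signs of differences that passed no test turned as follows. For pre-M minus post-M in 2i, coverage deviation was 0.0536, 0.0419, 0.00388, 0.121 and 0.00699 with minimums of 2 and 3 cells, in the shared range of contacts, without NoSort and with the replicate block. Contacts were -450.1, -3902, -11530, -29612 and -1802 with a minimum of 3 cells, medians, the shared range, without NoSort and with the block. The no-digestion share was -2.06 and -1.54 with minimums of 2 and 3 cells, the replication score -0.00177 with medians, and duplicated ends 0.0391 with the block. In serum, duplicated ends were -0.0160 with a minimum of 2 cells, and with 3 the trans compartment score was -0.00493 and the no-digestion share -0.123. In haploid cells, contacts were 44109 and the no-digestion share -1.39 in the shared range. For pre-M minus late-S/G2, haploid contacts were 4079 in the shared range, the haploid no-digestion share 0.268 with medians, and serum contacts -4667 with a minimum of 3. For post-M minus G1, the serum trans compartment score was 0.0132 with minimums of 2 and 3, and 2i alignment -0.0777 without NoSort.

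Leaving out single libraries gave these ranges across 0. For pre-M minus post-M in 2i, the replication score ran from -0.00254 to 0.00742, contacts from -8737 to 46238, duplicated ends from -0.942 to 0.140 and the between-chromosome share from -0.0879 to 0.558. In serum, alignment ran from -0.124 to 0.0154, contacts from -8606 to 134585 and duplicated ends from -0.0750 to 0.471, and haploid coverage deviation from -0.346 to 0.0411. For post-M minus G1, 2i alignment ran from -0.000120 to 0.0644, serum alignment between -0.0267 and 0.0908, the haploid replication score from -0.00941 to 0.0289 and the serum no-digestion share from -1.34 to 0.257. For pre-M minus late-S/G2, the haploid no-digestion share ran from -0.887 to 0.0193 and serum contacts from -34796 to 43932.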
